A study of Mus musculus with 38 samples.

Results

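SATB1 urea peaks of mouse brain were compared with those of mouse thymocytes, using 2 peak lists from each tissue. The 4 lists were merged into 137980 sites wherever peaks shared at least 1 bp. A site was called brain-only when both brain lists and neither thymocyte list had a peak there, thymocyte-only in the reverse case, and common when all 4 lists had one. There were 48380 brain-only, 775 thymocyte-only and 30463 common sites, together 79618 of the 137980. The other 58362 sites followed other patterns, of which 41389 were in 1 list alone. The series as a whole holds 698638 peaks in 11 lists.

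All 4 libraries came from wild-type C57BL/6 mice carrying 2 functional Satb1 alleles, and all were precipitated with the home-made antibody 1583D against SATB1. In urea ChIP-seq, crosslinked chromatin is spun through urea before fragmentation, so that DNA carries only proteins crosslinked to it directly. The brain material was a cell suspension of cortex, in which neurons are the SATB1-expressing cells according to the protocol, and the thymus material was isolated thymocytes. The labels give brain replicate 1 as 5 weeks old with 10 cycles of PCR and brain replicate 2 as 6 weeks old with 12 cycles, while the protocol of both names postnatal day 13 and the study's methods another range. Both thymocyte libraries were from postnatal day 13, with 4 µl of antibody in replicate 1 and 2 µl in replicate 2. Each pair shares an experiment number, and the labels do not say that its chromatin came from separate animals, so the spread between replicates may be technical. The lists hold no read counts. The study's text describes the aligned reads of its urea libraries as alike in total between cell types, and the read number of each library is not given in the sources used here. With peak lists alone, SATB1 expression and the identity of the cells could not be checked against marker genes.

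SATB1 is a nuclear protein that folds chromatin into loops in T-cell precursors and is also made by subsets of cortical neurons. It binds base-unpairing regions (BURs), AT-rich stretches that unwind readily under negative supercoiling. A BUR is built from runs in which 1 strand carries A, T and C without G, so that its complement lacks C. The BUR reference map of this series lists where recombinant SATB1 bound purified mouse DNA in vitro, and it therefore gives potential sites without regard to cell type.

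The strongest BUR-bearing sites of each class are shown as 150 bases around the summit, as examples that need not share the composition of their class. Of all thymocyte-only sites, only 20.9% overlapped a BUR. The thymocyte-only examples have AT contents of 77.3%, 66% and 74%, against a mean of 62.2% over that class. They have the highest mean fold enrichment in the lists that hold them, lie on a BUR, and have no standard SATB1 or CTCF peak. Coordinates are of NCBIM37 (mm9), the plus strand is given, and capitals mark the longest run without C or without G.
Brain-only site 1, chrX:121199597-121199746: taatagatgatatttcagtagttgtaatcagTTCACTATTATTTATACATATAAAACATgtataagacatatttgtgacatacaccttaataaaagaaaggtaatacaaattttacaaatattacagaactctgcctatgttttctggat
Brain-only site 2, chrX:17709129-17709278: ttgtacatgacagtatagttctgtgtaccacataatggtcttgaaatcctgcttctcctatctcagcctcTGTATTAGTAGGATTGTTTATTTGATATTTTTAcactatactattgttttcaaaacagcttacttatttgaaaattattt
Brain-only site 3, chrX:53199982-53200131: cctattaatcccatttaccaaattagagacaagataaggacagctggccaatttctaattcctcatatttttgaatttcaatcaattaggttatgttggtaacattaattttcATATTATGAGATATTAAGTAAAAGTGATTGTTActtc
Thymocyte-only site 1, chr17:52692217-52692366: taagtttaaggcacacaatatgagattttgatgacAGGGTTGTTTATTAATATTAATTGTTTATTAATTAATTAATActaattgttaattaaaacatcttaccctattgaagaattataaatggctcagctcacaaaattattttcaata
Thymocyte-only site 2, chr17:41414661-41414810: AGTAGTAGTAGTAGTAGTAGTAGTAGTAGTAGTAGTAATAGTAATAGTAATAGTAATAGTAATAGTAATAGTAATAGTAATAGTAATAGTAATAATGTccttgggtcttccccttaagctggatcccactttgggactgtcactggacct
Thymocyte-only site 3, chrX:146263958-146264107: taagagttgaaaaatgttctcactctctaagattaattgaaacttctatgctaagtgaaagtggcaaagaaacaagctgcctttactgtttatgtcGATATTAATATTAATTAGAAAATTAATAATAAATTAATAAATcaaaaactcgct
Common site 1, chr17:72985138-72985287: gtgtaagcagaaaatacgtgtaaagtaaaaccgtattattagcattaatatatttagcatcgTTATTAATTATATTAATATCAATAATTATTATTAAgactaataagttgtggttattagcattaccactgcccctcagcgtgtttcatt
Common site 2, chrX:131111205-131111354: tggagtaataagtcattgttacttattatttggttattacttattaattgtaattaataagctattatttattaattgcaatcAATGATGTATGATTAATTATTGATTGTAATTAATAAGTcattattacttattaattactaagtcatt
Common site 3, chr6:148961200-148961349: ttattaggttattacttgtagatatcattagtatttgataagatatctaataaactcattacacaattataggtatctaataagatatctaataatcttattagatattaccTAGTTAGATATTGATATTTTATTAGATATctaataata

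Of these 9 sites, 7 lay between protein-coding genes. Common site 2 was in an intron of Btk, the kinase of B-cell receptor signalling, and common site 3 in an intron of Dennd5b. Brain-only site 1 had fold enrichments of 25.9 and 27.0 in the 2 brain lists and no peak in thymocytes. Thymocyte-only site 1, whose nearest gene is Kcnh8 at 173 kb, had 32.0 and 31.7 in the 2 thymocyte lists and no peak in brain. Fold enrichment, as the peak caller gave it for each library, divides the height of a summit by the background estimated around it. Common site 1, with Alk as the nearest gene at 32.2 kb, had 27.3 and 29.1 in brain and 36.2 and 35.5 in thymocytes. The longest run without C or G measured 28, 33 and 33 bases in the brain-only sites. It measured 42, 98 and 42 bases in the thymocyte-only sites, the second of which is a simple repeat, and 35, 38 and 29 in the common sites. The runs of these examples were measured over the 150 bases shown. They do not follow the order of the classes, whose median runs over 300 bp were 33, 31 and 34 bases in brain-only, thymocyte-only and common sites. All 3 brain-only sites lay on chromosome X, as did 1 thymocyte-only and 1 common site.

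The brain lists were longer than the thymocyte lists, and most thymocyte peaks were also brain peaks. The brain lists had 117963 and 109154 peaks and the thymocyte lists 45049 and 38882. On the assembled chromosomes the means were 113554 ± 6229 in brain and 41849 ± 4352 in thymocytes (SD, n = 2 lists each), a ratio of 2.71, and the lists of the tissues did not overlap in size. The exact two-sided permutation test gave p = 0.333, which is the smallest p that 2 lists against 2 allow. The brain lists had 5 peaks each on unplaced sequences and the thymocyte lists 123 and 111, and the files of the tissues differ in number format. Whether the 2 pairs were called in separate runs, and what that did to the numbers of peaks, cannot be told apart from the tissue. By the labels the ages of the mice differ between the tissues as well, so age cannot be told apart from tissue either.

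Of the peaks of a thymocyte list, 91.9% ± 0.628 overlapped a peak of a brain list, and of the peaks of a brain list, 33.8% ± 1.57 overlapped a peak of a thymocyte list (mean of both lists of the other tissue, SD over 2 lists). Replicates of brain overlapped at 81.0% and replicates of thymocytes at 79.1% of their peaks. Of the 32847 sites in both thymocyte lists, 92.7% were in both brain lists and 2.36% were in neither. Of the 91524 sites in both brain lists, 33.3% were in both thymocyte lists and 52.9% in neither. A further 12681 sites were in both brain lists and 1 thymocyte list, and 1609 in both thymocyte lists and 1 brain list.

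**Figure D1:**
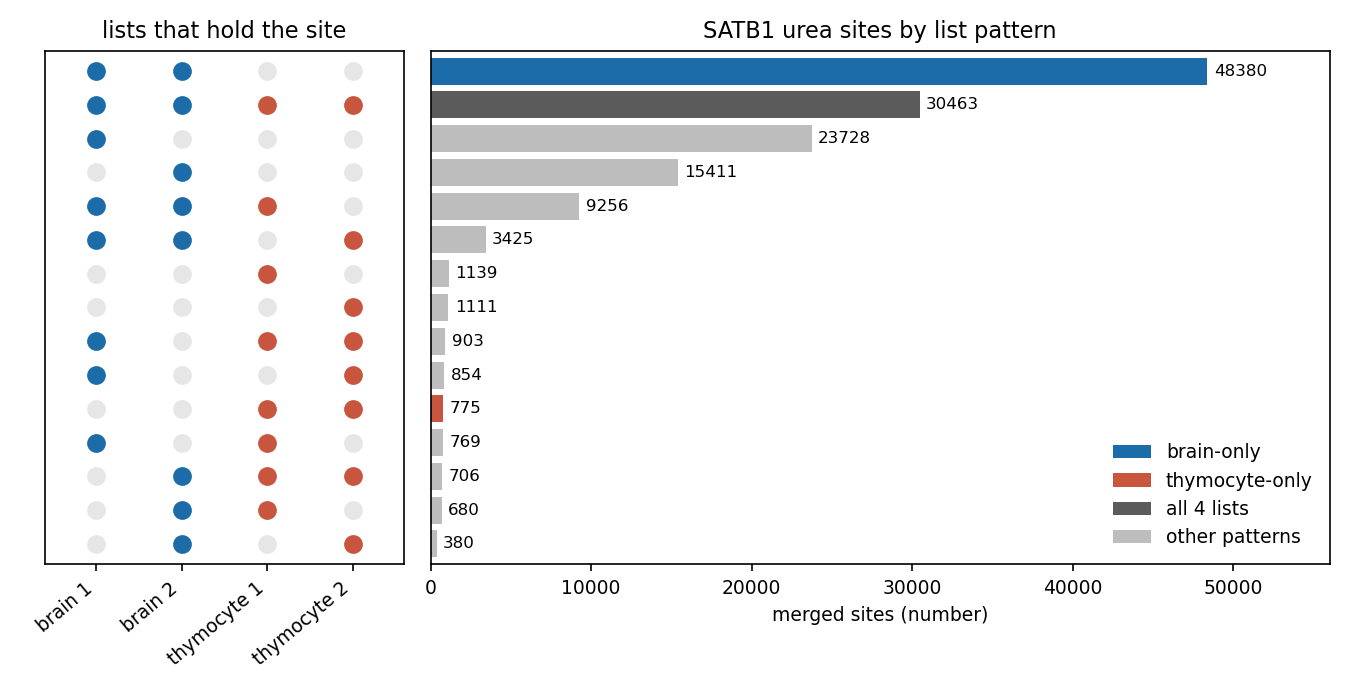
Number of merged SATB1 urea sites (bars, linear axis from 0) for each of the 15 combinations of lists, with filled dots on the left marking the lists that hold the site. The brain-only pattern has 48380 sites, the common pattern 30463 and the thymocyte-only pattern 775.

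The counts of the 2 tissue-only classes depended on the lengths of the lists. When each list was reduced to its 38771 peaks with the highest −log10 q, the number in the shortest list, 8371 sites were brain-only, 7714 thymocyte-only and 20201 common. Overlap was then 63.0% ± 0.905 of brain peaks and 63.3% ± 2.43 of thymocyte peaks, against 84.9% between the brain replicates and 80.4% between the thymocyte replicates. Most of the 7714 thymocyte-only sites of this reduced comparison, 91.6%, overlapped a brain peak of the whole lists. Of the 8371 brain-only sites, 14.9% overlapped a thymocyte peak of the whole lists. At this size the lists reached down to a −log10 q of 39.3 and 32.3 in brain, and of 7.78 and 2.72 in thymocytes. Every comparison at equal size therefore sets the stronger brain peaks against most or all thymocyte peaks, so peak strength differs along with tissue.

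Sharing between tissues followed the strength of the peak. In the lowest decile of brain replicate 1 by fold enrichment, 7.19% of peaks overlapped a thymocyte peak, and in the highest decile 88.1% did. In brain replicate 2 these shares were 7.91% and 90.1%. The thymocyte lists began at 82.9% and 80.9% in their lowest deciles and ended at 99.9% and 99.1%. The strongest thymocyte peaks were therefore nearly all in the brain lists, while 7.24% and 5.75% of the strongest decile of brain peaks were in neither thymocyte list.

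**Figure D2:**
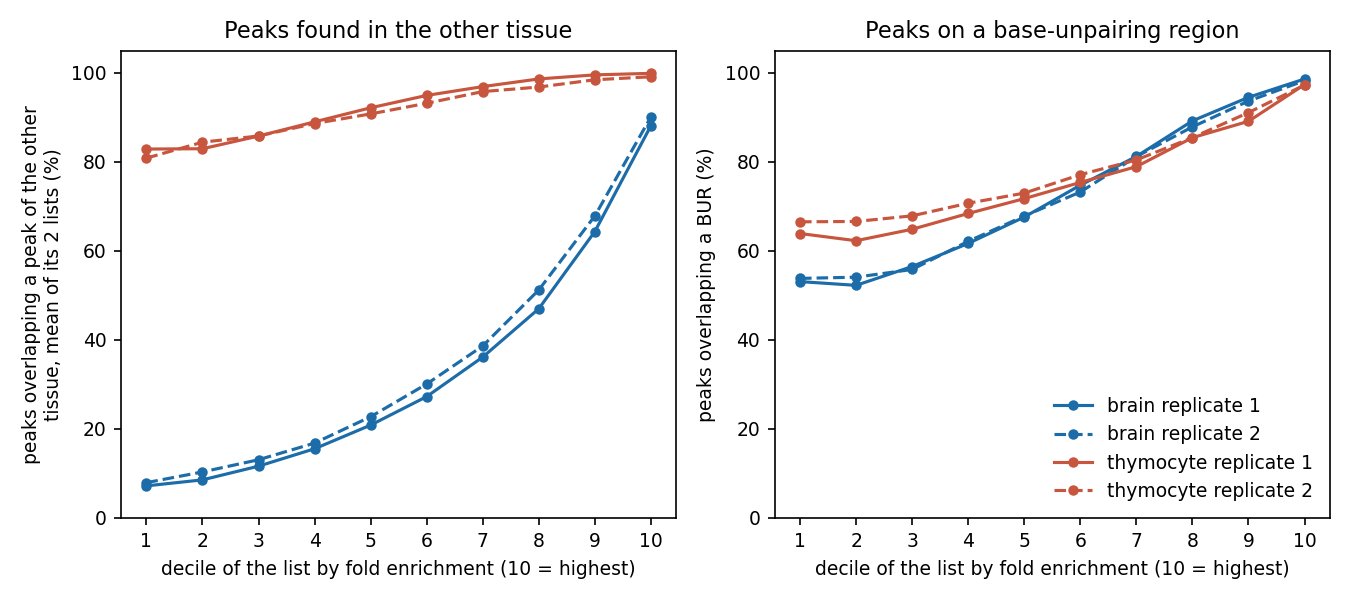
Left, percentage of peaks that overlap a peak of the other tissue (mean over its 2 lists), and right, percentage that overlap a BUR, for each decile of a list ordered by fold enrichment; 1 line per list. Brain peaks run from 7.19% and 7.91% in the lowest decile to 88.1% and 90.1% in the highest, and thymocyte peaks lie at 80.9% or above throughout.

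Brain-only sites were weaker than common sites in the same libraries. The median fold enrichment of brain-only sites was 6.71 in brain replicate 1 and 6.59 in replicate 2, and that of common sites 12.9 and 12.6. Sites in both brain lists and 1 thymocyte list lay between, at 8.99 and 8.72. Thymocyte-only sites had medians of 6.00 and 5.98 in the thymocyte lists, where common sites had 9.72 and 8.84. A mean fold enrichment of at least 15 was reached by 933 brain-only sites (1.93%), 7 thymocyte-only sites (0.903%) and 7264 common sites (23.8%). Across the 30463 common sites, the mean brain and mean thymocyte enrichments had a Spearman rho of 0.55, against 0.91 between the brain replicates and 0.84 between the thymocyte replicates. These are correlations across sites, which are not independent replicates, and local background is shared within a library.

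Over whole lists, the place of peaks relative to genes differed by less than 1 percentage point between the tissues. Introns of protein-coding genes held 33.0% and 33.1% of the brain peaks and 33.6% and 33.8% of the thymocyte peaks. Intergenic peaks made up 65.8% and 65.7% in brain and 65.3% and 65.1% in thymocytes. Of the bases of the genome, 34.6% are intronic and 62.5% intergenic. The difference in the intron share, brain minus thymocytes, was -0.68 percentage points and that in the intergenic share 0.57 points (exact permutation p = 0.333 for each, the smallest possible). With lists of equal size these differences were -2.03 and 2.10 points, from 31.3% and 31.9% intronic peaks in brain against 33.4% and 33.8% in thymocytes (exact permutation p = 0.333 for each). Exons held 1.20% and 1.19% of brain peaks and 1.10% and 1.07% of thymocyte peaks, below the 2.90% of bases they cover.

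Among sites, 32.2% of the brain-only, 34.8% of the thymocyte-only and 33.4% of the common ones were intronic, and 66.6%, 63.0% and 65.6% were intergenic. The intron share of brain-only sites was thus 2.65 points below that of thymocyte-only sites, with 775 sites in the smaller class. Among peaks on a BUR alone, this difference turned to 0.43 points in the other direction. BURs themselves were 30.8% intronic and 68.1% intergenic. A start of a protein-coding gene lay within 1 kb of 1.24% of brain-only, 2.58% of thymocyte-only and 1.59% of common sites. The median distance to the nearest start was 127 kb for brain-only, 69.6 kb for thymocyte-only and 99.8 kb for common sites, and 103 kb for BURs.

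Thymocyte-only sites were the least AT-rich class. The AT content of 300 bp around the site centre averaged 70.4% in brain-only, 62.2% in thymocyte-only and 69.0% in common sites, with SDs over sites of 4.58, 6.64 and 5.67 points. The genome average was 58.2% and that of BURs 71.0%. Low AT content was not particular to the thymocyte-only class. Sites in thymocyte replicate 1 or 2 alone had 62.7% and 63.6%, and sites in brain replicate 1 or 2 alone 68.5% and 67.3%. Of brain-only sites, 88.2% had an AT content of at least 65%, against 34.8% of thymocyte-only and 78.3% of common sites. Over whole lists the tissues were much closer, at 69.4% and 69.3% around summits of brain peaks and 68.4% and 68.2% around those of thymocyte peaks, a difference of 1.01 points (exact permutation p = 0.333). The difference was 2.67 points with lists of equal size, at 71.2% and 70.9% in brain and 68.5% and 68.2% in thymocytes, and 0.39 points over whole peaks (exact permutation p = 0.333 for each). The longest run without C or G in these windows had a median of 33 bases in brain-only, 31 in thymocyte-only and 34 in common sites, and 40 in BURs.

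Most brain-only sites and few thymocyte-only sites lay on BURs. A BUR was overlapped by 76.8% of brain-only, 20.9% of thymocyte-only and 84.5% of common sites. Sites in thymocyte replicate 1 or 2 alone overlapped a BUR in 14.4% and 43.8% of cases, and those in brain replicate 1 or 2 alone in 51.6% and 40.5%. Where a BUR was present, its median in vitro fold enrichment was 6.47 under brain-only, 5.37 under thymocyte-only and 8.70 under common sites, against 5.88 over all BURs. In whole lists, 73.0% and 72.8% of brain peaks and 75.8% and 77.6% of thymocyte peaks overlapped a BUR, a difference of -3.81 points (exact permutation p = 0.333). With lists of equal size the order turned, to 95.0% and 93.3% in brain and 77.9% and 77.6% in thymocytes, a difference of 16.4 points (exact permutation p = 0.333). The equal-size brain lists hold only the stronger peaks, and the BUR share was higher among strong peaks in every list. From the lowest to the highest decile of fold enrichment it went from 53.1% and 53.8% to 98.7% and 98.3% in brain. In thymocytes it went from 63.9% and 66.5% to 97.4% and 97.3%. At equal size the 7714 thymocyte-only sites overlapped a BUR in 44.0% of cases and had a mean AT content of 64.6%, while the 8371 brain-only sites did so in 96.0% and had 72.5%.

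Thymocyte-only sites overlapped peaks of the other SATB1 and CTCF lists more often than brain-only sites did. A skin SATB1 urea peak was overlapped by 24.9% of thymocyte-only and 32.5% of common sites, but by 0.244% of brain-only sites. A thymocyte SATB1 peak from standard ChIP-seq was overlapped by 5.29% of thymocyte-only, 1.17% of common and 0.399% of brain-only sites, and a CTCF peak by 4.26%, 0.985% and 0.475%. The skin lists are short, and the standard lists come from the same tissue as the thymocyte lists.

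Chromosome X held 15.1% of the thymocyte-only sites (117 of 775), 4.06% of the brain-only and 4.95% of the common sites, and 6.28% of the assembled bases. It also held 11.4% and 9.36% of the sites in thymocyte replicate 1 or 2 alone, and 4.81% and 4.04% of those in brain replicate 1 or 2 alone. Of the 7 thymocyte-only sites with a mean fold enrichment of at least 15, 5 lay on X and 2 on chromosome 17. The share of peaks on X was 4.59% and 4.43% in brain and 5.54% and 5.37% in thymocytes, and chromosome Y had 88 and 86 peaks in brain and 6 and 6 in thymocytes. The labels do not give the sex of the mice, and an effect of sex on the X and Y counts cannot be told apart from that of tissue. With autosomes alone, the difference between brain-only and thymocyte-only sites was 8.63 points in AT content and 57.8 points in the share on BURs, against 8.17 and 55.9 points with all chromosomes.

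Genes carrying the sites were long. Of 22367 protein-coding genes, 4696 (21.0%) held a brain-only site, 269 (1.20%) a thymocyte-only site and 4194 (18.8%) a common site. The median length of these genes was 75.5, 126 and 82.3 kb, against 15.4 kb over all protein-coding genes. Both brain-only and common sites occurred in 2631 genes of median length 123 kb, brain-only without common sites in 2065 genes of 40.4 kb, and common without brain-only sites in 1563 genes of 38.5 kb. Of the 269 genes with a thymocyte-only site, 174 also had a brain-only site, and 65 had neither other class.

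Longer genes held a site more often, in each class. Brain-only sites were found in 2.2% of genes up to 10 kb, 72.6% of those of 100 to 300 kb and 100% of the 52 genes over 1000 kb. The corresponding shares were 1.86%, 69.0% and 100% for common sites and 0.124%, 3.90% and 38.5% for thymocyte-only sites. Per Mb of gene body, brain-only sites numbered 6.33 in the shortest and 30.1 in the longest genes, common sites 4.93 and 16.5, and BURs 33.0 and 122. Brain-only sites numbered 19.2 per 100 BURs in genes up to 10 kb and 24.7 in genes over 1000 kb, while common sites numbered 14.9 and 13.5. Thymocyte-only sites had 0.321 per Mb in the shortest and 0.431 in the longest genes.

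**Figure D3:**
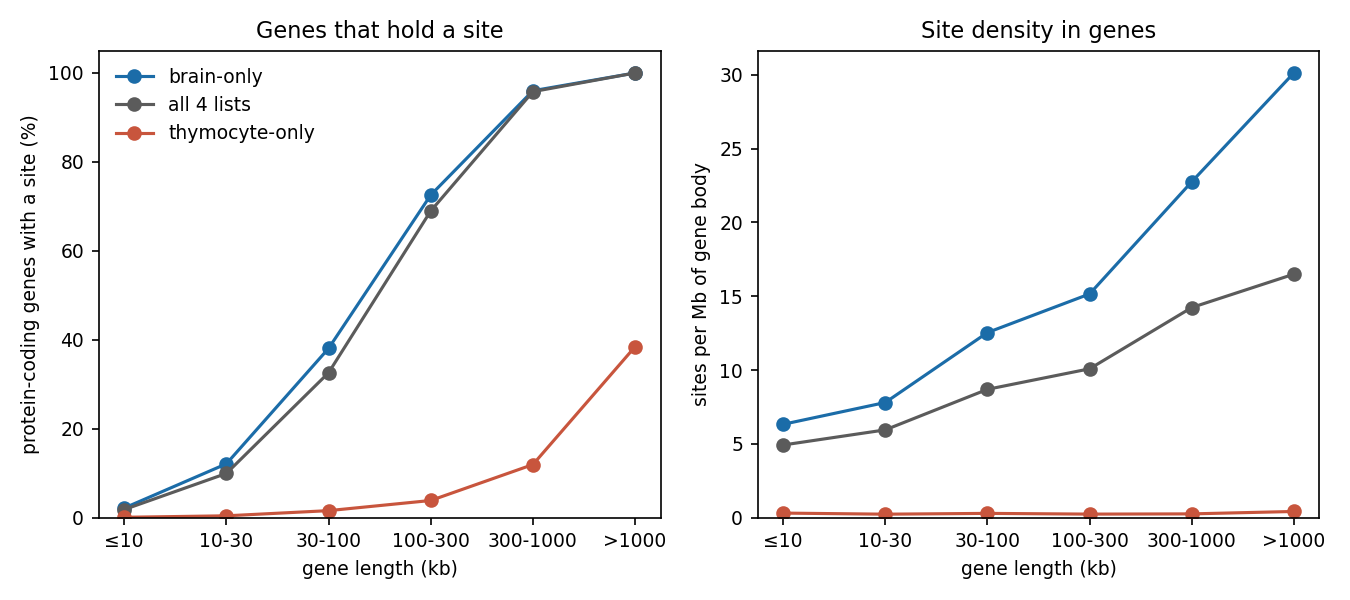
Left, percentage of protein-coding genes that hold at least 1 site of a class, and right, sites per Mb of gene body, by gene length (6 classes of length in kb). Brain-only sites reach 30.1 per Mb in genes over 1000 kb and common sites 16.5, and thymocyte-only sites stay at or below 0.431.

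Counted by site, the genes around brain-only sites were longer than those around thymocyte-only sites. Intragenic brain-only sites lay in genes of a median of 250 kb (16180 sites), thymocyte-only sites in genes of 140 kb (287 sites) and common sites in genes of 219 kb (10485 sites), and BURs in genes of 213 kb. The log2 ratio of brain-only to thymocyte-only medians was 0.83, and 0.70 with lists of equal size. Over whole lists the medians were 232 and 235 kb in brain and 214 and 213 kb in thymocytes, a log2 ratio of 0.13 (exact permutation p = 0.333). With lists of equal size they were 257 and 252 kb against 213 and 213 kb, a log2 ratio of 0.26 (exact permutation p = 0.333).

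The genes with the most brain-only sites were very long, and several encode surface proteins of neurons. Lrp1b (chr2:40450768-42509118), a lipoprotein receptor family member, held 116 brain-only, 1 thymocyte-only and 51 common sites among 447 BURs. Ptprd (chr4:75587142-77857865), a receptor tyrosine phosphatase of synapses, held 109, 1 and 53. Cntnap2, a neurexin-like adhesion molecule, held 85, 0 and 51, and Erbb4 (chr1:68078760-69154633), a neuregulin receptor, 84, 3 and 27. They were followed by Csmd3 with 83, Lrrc4c, a netrin-G ligand, with 78, Sgcz with 73 and Dmd, the dystrophin gene, with 72 brain-only sites. These genes also led the common sites, where Ptprd, Lrp1b, Cntnap2, Csmd3, Fam190a, Sgcz and Dmd held 53, 51, 51, 47, 42, 40 and 38. No gene held more than 3 thymocyte-only sites. Erbb4 and Nrxn3, a presynaptic neurexin, held 3, and the next by the naming rule, Col4a5, Gm20388, Csmd3, Frmpd4, Kcnip4 and Mkx, held 2 each, of which Col4a5 and Frmpd4 are on chromosome X. Gm20388 is a gene model of 4435 kb that spans other genes, so its sites belong to those genes as well. At equal list size Erbb4 held 23 brain-only, 5 thymocyte-only and 22 common sites, and Cntnap2 15, 12 and 35.

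To scale for the lengths of the lists, the peaks in each gene were divided by all peaks of the list. A gene was counted as higher in a tissue when both its lists lay above both lists of the other. The division does not remove the effect of list length. Scn8a had 3 and 3 peaks in brain and 3 and 3 in thymocytes, and held 3 common sites. Its log2 ratio of shares was -1.45, and it was counted as higher in thymocytes. The calls below can therefore still depend on list length. Of the 2513 genes with at least 10 peaks over the 4 lists, 690 (27.5%) were higher in brain and 914 (36.4%) higher in thymocytes. Their median lengths were 149 and 125 kb, against 138 kb for all 2513. Among the 52 genes over 1000 kb, 26 were higher in brain and 12 in thymocytes. The median log2 ratio of brain to thymocyte share was -0.08 over the 2484 genes with peaks in both tissues. Lists of equal size left 280 and 307 such genes, with fewer genes reaching 10 peaks.

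Of the genes higher in brain, 29 had no thymocyte peak. Asb3 had 10 and 10 peaks in the brain lists and none in thymocytes, Atad2b 8 and 10, Cobl 7 and 9, Prkg2 9 and 7, Nkain2 10 and 6, and Mbnl2, a splicing regulator, 8 and 7. Among genes with peaks in both tissues, the ratio was highest for Nox4, an NADPH oxidase, with 15 and 11 brain peaks against 0 and 1 in thymocytes. Gabrg1 (chr5:71142286-71233856), a GABA-A receptor subunit, had 14 and 8 against 1 and 0. Tle4, a corepressor, had 10 and 10 against 1 and 0, AI848100 9 and 9 against 1 and 0, Cobll1 12 and 5 against 1 and 0, and AI314180 8 and 8 against 1 and 0. With 0 or 1 peak in thymocytes no ratio is given for these genes.

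The genes with the lowest ratio had few peaks in either tissue. Gyk, glycerol kinase, on chromosome X, had 2 and 2 brain peaks and 3 and 3 thymocyte peaks, a log2 ratio of shares of -2.03. Clic4 and Sos2, a Ras exchange factor, each had 2 and 3 against 3 and 3 (log2 ratio -1.70). Hsf3, also on X, had 2 and 3 against 4 and 2, and Bcat1 3 and 3 against 4 and 3, with log2 ratios of -1.66 and -1.65. In such genes a single peak moves the ratio strongly.

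**Figure D4:**
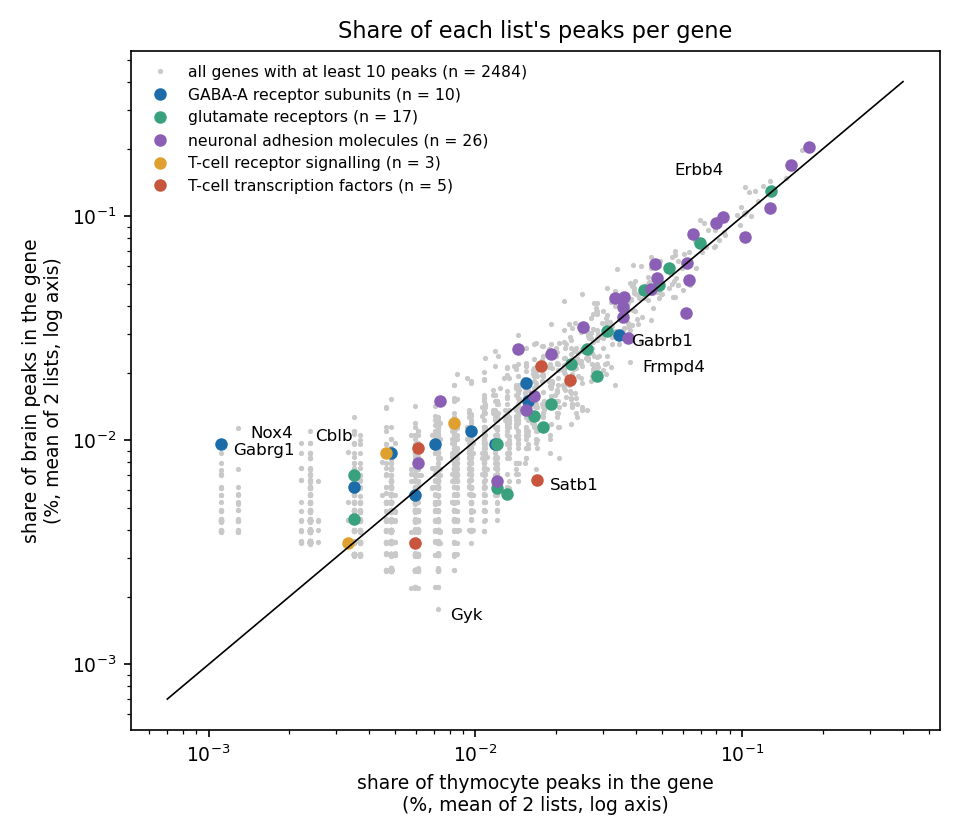
Share of all peaks of a list that fall in a gene, brain against thymocytes (percent, mean of 2 lists each, log axes), for 2484 genes with at least 10 peaks and peaks in both tissues; colours mark 5 gene lists, and the line marks equal shares. Gabrg1 and Nox4 lie far above the line, and Satb1, Gyk and Frmpd4 below it.

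GABA-A receptor subunits form the chloride channels of inhibitory synapses. Of 19 genes, 14 held a brain-only site, none a thymocyte-only site and 10 a common site, where 21.0%, 1.20% and 18.8% of all protein-coding genes did. Their median length was 88.6 kb. Brain-only sites were in 38.1% of all genes of 30 to 100 kb and 72.6% of those of 100 to 300 kb, and common sites in 32.6% and 69.0%. All 7 subunits over 100 kb held both brain-only and common sites. Together they held 63 brain-only and 32 common sites, so that brain-only made up 66.3% of both classes together, against 60.7% over all sites in protein-coding genes. Of the 10 subunits with at least 10 peaks, 5 were higher in brain, among them Gabra4, Gabrb2 and Gabrg1. Gabra3, on chromosome X, and Gabrb1 were higher in thymocytes. Among all 2513 genes with at least 10 peaks, the shares higher in brain and in thymocytes were 27.5% and 36.4%. Gabrb1 had 36 and 31 brain peaks and 17 and 12 thymocyte peaks (log2 ratio of shares -0.22). Gabrb2 had 21 and 20 against 7 and 6 (0.22). Gabrg3 had 18 and 16 against 6 and 7, and its lists overlapped.

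Glutamate receptors, of excitatory synapses, held 254 brain-only, 3 thymocyte-only and 172 common sites, and 59.6% of the brain-only and common sites were brain-only, near the 60.7% over all genes. Of 26 genes, 16 held a brain-only, 2 a thymocyte-only and 16 a common site, against 21.0%, 1.20% and 18.8% of all genes. Their median length was 298 kb, however. Among all genes of 100 to 300 kb, 72.6% held a brain-only, 3.90% a thymocyte-only and 69.0% a common site. Of the 17 with at least 10 peaks, 3 were higher in brain, namely Grik2, Grin2a and Grm5, and 8 higher in thymocytes, against 27.5% and 36.4% of all 2513 genes. Grik2, a kainate receptor subunit, had 88 and 84 brain peaks against 31 and 27 in thymocytes (log2 ratio 0.13). Grm8 had 69 and 64 against 21 and 23, and Grm5 56 and 51 against 20 and 16 (0.13). Gria1, an AMPA receptor subunit, had 8 and 6 against 5 and 5 (-0.97).

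The pore subunits of voltage-gated sodium and calcium channels held 37 brain-only, 1 thymocyte-only and 26 common sites. Brain-only made up 58.7% of the brain-only and common sites, near the 60.7% over all sites in protein-coding genes. Of the 8 with at least 10 peaks, Scn3a and Cacna1e were higher in brain and Scn8a and Scn9a in thymocytes. Among all 2513 genes with at least 10 peaks, 27.5% were higher in brain and 36.4% in thymocytes. Scn9a had 21 and 19 brain peaks against 10 and 8 (log2 ratio -0.28), and Cacna1e 8 and 9 against 3 and 2 (0.34). Scn1a had 11 and 12 against 4 and 6 and Cacna1d 14 and 11 against 4 and 4, and the lists of both overlapped.

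Neuronal adhesion molecules, which join axons and synapses, had a median length of 579 kb and held 749 brain-only, 13 thymocyte-only and 422 common sites. Of its 35 genes, 28 held a brain-only, 9 a thymocyte-only and 26 a common site, against 21.0%, 1.20% and 18.8% of all genes, whose median length was 15.4 kb. Among all genes of 300 to 1000 kb, 96.0% held a brain-only, 12.0% a thymocyte-only and 95.8% a common site. Brain-only made up 64.0% of the brain-only and common sites, against 60.7% over all genes and 64.6% in the genes over 1000 kb. Of the 26 genes with at least 10 peaks, 14 were higher in brain and 7 in thymocytes, against 27.5% and 36.4% of all 2513 genes and against 26 and 12 of the 52 genes over 1000 kb. Dscam had 17 and 17 brain peaks against 2 and 4 in thymocytes (log2 ratio 1.02) and Cntn3 30 and 28 against 6 and 6 (0.83). Ptprd had 242 and 221 against 79 and 70 (0.19), Cntnap2 198 and 187 against 69 and 58 (0.16), and Cntn5 115 and 110 against 41 and 30 (0.23). Ntm had 42 and 42 against 25 and 26 (-0.73), and Il1rapl1, on chromosome X, 135 and 114 against 54 and 52 (-0.22).

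Among genes of T-cell identity, those of the receptor complex held 3 brain-only sites, no thymocyte-only site and no common site. Their median length was 20.8 kb, and that of the signalling genes and transcription factors 71.7 and 81.1 kb, against 15.4 kb over all protein-coding genes. Of 13 annotated genes of the T-cell receptor complex and its coreceptors, Cd28, Cd6 and Ctla4 held 1 brain-only site each, and none held a thymocyte-only or common site. Brain-only, thymocyte-only and common sites were in 12.1%, 0.455% and 9.98% of all genes of 10 to 30 kb, and in 21.0%, 1.20% and 18.8% of all genes. Cd3d, Cd3e, Cd3g, Cd8a and Cd8b1 had no peak in any of the 4 lists. Of 17 genes of T-cell receptor signalling, 7 held a brain-only, none a thymocyte-only and 8 a common site, against 21.0%, 1.20% and 18.8% of all genes. Among all genes of 30 to 100 kb, these shares were 38.1%, 1.62% and 32.6%. Themis, an adaptor of thymocyte selection, had 13 and 14 brain peaks against 4 and 3 in thymocytes (log2 ratio 0.52), and Cblb, a ubiquitin ligase that restrains T-cell activation, 11 and 9 against 3 and 1 (0.92), and both were higher in brain. Lck and Zap70, kinases of the receptor, had no peak. Fyn had 3 and 2 against 1 and 1, and Nfatc3 5 and 3 against 3 and 0.

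Of 19 transcription factors of T-cell development, 6 held a brain-only, 1 a thymocyte-only and 7 a common site. Such sites were in 21.0%, 1.20% and 18.8% of all genes, and in 38.1%, 1.62% and 32.6% of those of 30 to 100 kb. Brain-only made up 55.1% of the 27 brain-only and 22 common sites, against 60.7% over all genes. Satb1 itself (chr17:51875512-51972615) had 6 and 9 brain peaks and 6 and 8 thymocyte peaks, a log2 ratio of shares of -1.35, and it held 2 brain-only, 1 thymocyte-only and 4 common sites. Tcf12 had 21 and 21 against 11 and 8 (-0.28) and Runx1 5 and 3 against 3 and 2 (-0.76), and these 2 were higher in thymocytes as well. Ikzf2 had 12 and 9 against 2 and 3 and was higher in brain (0.60). Tox had 26 and 23 against 10 and 5, with overlapping lists. Tcf7, Lef1 and Gata3 had no peak in any list, and Bcl11b had 1 peak, in thymocyte replicate 2.

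Among other cell types, none of 14 oligodendrocyte and astrocyte markers held a brain-only site and 2, Aqp4 and Mbp, held 1 common site each. Of the 3 such markers over 100 kb, none held a brain-only and 1 a common site. Among all genes of 100 to 300 kb, 72.6% and 69.0% did. The median length was 16.2 kb for these markers, 6.64 kb for housekeeping and 20.7 kb for keratinocyte genes. Among all genes of 10 to 30 kb, 12.1% held a brain-only and 9.98% a common site. Brain-only, thymocyte-only and common sites were in 21.0%, 1.20% and 18.8% of all genes. Whether gene length accounts for these counts was not tested. Of 14 housekeeping genes, Ywhaz held 1 brain-only site. Of 14 keratinocyte genes, 4 held a brain-only, 1 a thymocyte-only and 3 a common site, and Trp63, of basal epidermis, had 12 and 10 brain peaks against 4 and 5 in thymocytes. With lists of equal size, the GABA-A list had 49 and 48 brain peaks against 46 and 42 in thymocytes, and glutamate receptors 215 and 218 against 214 and 214. Adhesion molecules had 580 and 551 against 523 and 560, and sodium and calcium channels 29 and 27 against 33 and 35. T-cell transcription factors had 25 and 25 against 27 and 29, and T-cell receptor signalling 8 and 11 against 16 and 11. Keratinocyte genes had 5 and 4 against 7 and 7. Among these, the adhesion and signalling lists of the tissues overlapped.

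The region from Gabrg1 to Gabra2, 345 kb on chromosome 5, had 40 and 32 peaks in brain and 8 and 5 in thymocytes, among 68 BURs. It held 21 brain-only, 4 common and no thymocyte-only sites. Gabrg1 held 6 brain-only and no common sites, and Gabra2 (chr5:71352296-71487088), with 12 and 13 brain peaks against 4 and 4, held 7 and 3. The region of Cd4, the coreceptor of helper T cells, with 1 Mb on either side on chromosome 6, had 47 and 46 brain peaks and 19 and 16 thymocyte peaks, among 112 BURs. It held 19 brain-only, 12 common and 1 thymocyte-only site. Cd4 itself (chr6:124814710-124838239) had 4 BURs and no peak in any of the 4 lists, and lay in a stretch of 503 kb without a peak of either tissue that held 25 BURs and 27 whole protein-coding genes.

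**Figure D5:**
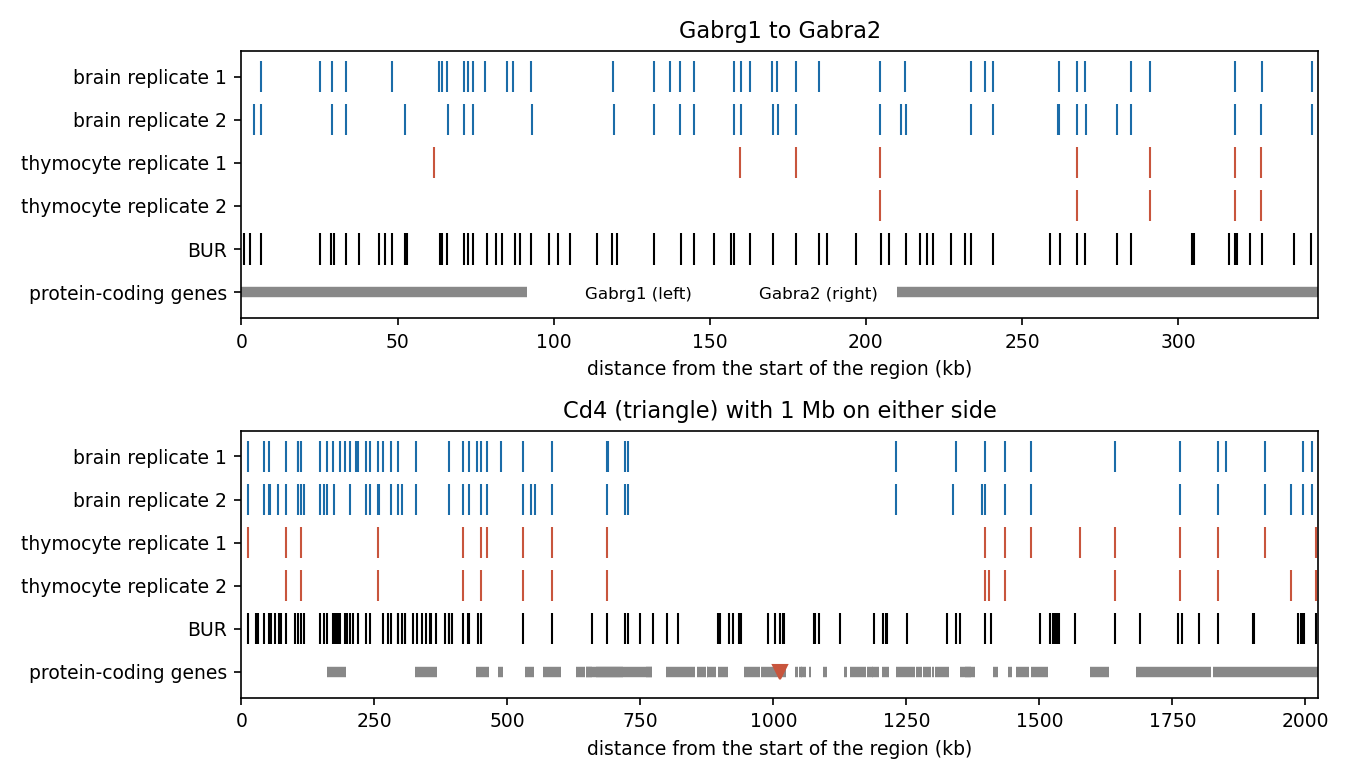
Summits of SATB1 urea peaks (blue, brain; red, thymocytes), centres of BURs (black) and protein-coding genes (grey) against distance in kb from the start of the region, for Gabrg1 to Gabra2 and for Cd4 with 1 Mb on either side. The first region has 40 and 32 brain and 8 and 5 thymocyte peaks, and around Cd4 a stretch of 503 kb has no peak in any list.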

How the data were processed

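Per the labels and the study's methods, the authors mapped reads to mm9 with Bowtie2 2.3.1, kept unique matches, and called peaks separately per library (MACS2 2.2.7, q-value threshold 0.01). Use of an input library in peak calling is not given in the sources used here. In the deposited lists each peak has a display score (not used), a fold enrichment, which is the ratio of summit height to local background, −log10 p and q values, and a summit offset. No scaling between libraries by the authors is stated.

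Peaks on chromosomes 1 to 19, X and Y were merged with Python 3.11.15 and numpy 2.4.6, and figures drawn with matplotlib 3.10.9. Genes and sequence were those of the GENCODE vM1 annotation and NCBIM37. A peak was placed by its summit and a site by its centre, in exons, introns or between protein-coding genes, and a position in several genes was given the length of the longest. AT content used 300 bp. Where a symbol had several gene models, the longest was taken, and Ptcra was not matched. Interval code was tested on simulated data. Lists were compared by exact two-sided permutation tests over 6 arrangements, and Benjamini-Hochberg adjustment over the 6 measures leaves p = 0.333. The genes named were the 8 with the most sites of each class, the 6 at either end of the ratio of shares and those with no thymocyte peak at its upper end, up to 4 members of each list, the 3 strongest sites per class off chromosome 18, and the loci of the study; other list members were named after their values were seen. Some genes that the rules pick are not reported here. The classes, gene lists and rules were chosen with earlier results of these data known. Precision is that of 2 lists per tissue, and no read counts were used.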

Additional observations from a re-analysis of the deposited data

How the results depend on the processing

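With lists of equal size the counts moved to 8371 brain-only, 7714 thymocyte-only and 20201 common sites, and to 280 and 307 genes with a higher share in brain and in thymocytes, while the difference in the BUR share of peaks turned to 16.4 points. With 20 peaks as the minimum per gene, 358 and 409 genes were counted. Peaks on BURs alone gave 159 thymocyte-only sites. Leaving out 1 replicate at a time gave 1488 to 1914 thymocyte-only sites, by construction since 1 list fewer had to hold or lack a site (1686 without brain replicate 1, 1488 without brain replicate 2, 1887 without thymocyte replicate 1 and 1914 without thymocyte replicate 2).

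The intron share of brain-only minus thymocyte-only sites was -3.10 points at a −log10 q of at least 5, -2.51 with 50% overlap of replicate 1 peaks, -2.30 with all gene biotypes, -3.10 by any overlap with the feature, -4.0 on autosomes, -6.55 at equal size, 0.43 on BURs alone, -3.89 with the other tissue at least 1 kb away, -3.09 without peaks on standard SATB1 or CTCF peaks, and -3.16 to -1.88 with 1 replicate left out. The AT difference was 7.11 points over whole sites, 8.63 on autosomes, 7.95 at equal size, 5.36 on BURs alone, 8.40 with the 1 kb distance, 7.51 without standard SATB1 or CTCF peaks, and 6.69 to 7.82 with 1 replicate left out. The log2 ratio of gene lengths was 0.81 with 50% overlap, 0.80 with all biotypes, 0.85 on autosomes, 0.70 at equal size, 0.94 on BURs alone, and 0.59 to 0.80 with 1 replicate left out. The BUR difference was 57.8 points on autosomes, 52.0 at equal size, 57.6 with the 1 kb distance, and 40.2 to 59.8 with 1 replicate left out. The causes of these shifts were not tested.

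In a paired test, permuting within replicate number (replicate block), the smallest possible two-sided p is 0.5, and each of the 6 measures gave it, with the same differences between tissues (71705 peaks per list). The labels do not tie replicate 1 of brain to replicate 1 of thymocytes. The remaining results kept their direction and, for counts, stayed within 1.5 times, and no test of 2 lists against 2 can pass 0.05.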
